A study of Mus musculus with 15 samples.

Results

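The genes described here encode 10 neuropeptide precursors of the hypothalamus, a small region at the base of the brain. They are Hcrt, Pmch, Oxt, Avp, Trh, Crh, Pomc, Agrp, Cartpt and Gal. They were chosen by symbol, and all 10 were found among the 45777 gene symbols listed for each library. The choice was made knowing that hypothalamic genes were higher after MPTP than in controls, so the MPTP against control values below are a description and not a test. The levodopa and inhibitor comparisons with MPTP alone use the same MPTP libraries, so the choice bears on them too.

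Brain messenger RNA was sequenced with strand-specific libraries in 5 groups of 3 mouse libraries each. MPTP is a toxin that, once converted in the brain, enters and damages dopamine neurons, and it is used to model Parkinson's disease. The high-dose inhibitor group received MPTP intraperitoneally at 20 mg/kg/day for 1 week and then an inhibitor of the Bruton tyrosine kinase BTK at 2 µg/kg/day for 4 weeks, a dose that other labels give as 50 pM. The low-dose inhibitor group received the same MPTP and then the inhibitor at 1 µg/kg/day, or 25 pM, for 4 weeks. The levodopa group received the same MPTP and then levodopa, the precursor of dopamine, at 2 mg/kg/day for 4 weeks, by mouth in one label and by intraperitoneal injection in another. The MPTP group received MPTP alone and then a normal diet, and the control group had a normal diet without MPTP. No strain, age, sex or name of the inhibitor is given in the sources used here. The protocol speaks of 8 mice in each group, and nothing says whether a library is 1 mouse or a pool. The p-values therefore measure the spread between these libraries, which may be technical.

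Neuropeptides are cut from larger precursors, stored in dense vesicles and released to act on receptors of the G-protein-coupled kind. Most of the genes are transcribed in small, spatially separate groups of neurons. Hcrt and Pmch mark neighbouring cell groups of the lateral hypothalamus. Oxt and Avp mark the large neurons of the paraventricular and supraoptic nuclei. Pomc and Agrp mark opposing cell groups of the arcuate nucleus. Trh, Crh, Gal and Cartpt are also transcribed outside the hypothalamus.

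The tissue label says brain and names no region. Depth was 58149722 to 61998459 counted reads for libraries of inhibitor-treated mice and 63314658 to 68257095 for all others. In CPM, the usual library-scaled count, here with edgeR's TMM factors, 3 reads were worth 0.0436 to 0.0526. Markers of brain regions differed between libraries of the same group. The summed level of 8 cerebellar genes was 6778 CPM in control library 2 and 5603 CPM in levodopa library 2, against 109.5 to 355 CPM in the other 13 libraries. In a bulk sample, fewer cells of a type and less RNA per cell cannot be told apart, and how much of the hypothalamus each library holds is not given.

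The promoters of Hcrt, Pmch and Pomc are shown, since these 3 genes are among those that differ most between libraries below and each window holds a TATA box. RefSeq's promoter table for GRCm38.p6 held 8 of the 10 genes, all but Agrp and Crh, as windows of 250 bases before to 50 after the transcription start. The sequences run 5′ to 3′ on the gene's strand, with TATAAA in capitals, for Hcrt (chr11:100762882-100763181, minus strand), Pmch (chr10:88090822-88091121, plus strand) and Pomc (chr12:3954695-3954994, plus strand).
Hcrt: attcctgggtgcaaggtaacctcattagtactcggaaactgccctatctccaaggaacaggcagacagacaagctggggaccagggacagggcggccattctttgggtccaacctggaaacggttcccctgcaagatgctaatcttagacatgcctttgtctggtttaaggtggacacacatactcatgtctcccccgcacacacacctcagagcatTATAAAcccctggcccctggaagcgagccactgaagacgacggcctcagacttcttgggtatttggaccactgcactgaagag
Pmch: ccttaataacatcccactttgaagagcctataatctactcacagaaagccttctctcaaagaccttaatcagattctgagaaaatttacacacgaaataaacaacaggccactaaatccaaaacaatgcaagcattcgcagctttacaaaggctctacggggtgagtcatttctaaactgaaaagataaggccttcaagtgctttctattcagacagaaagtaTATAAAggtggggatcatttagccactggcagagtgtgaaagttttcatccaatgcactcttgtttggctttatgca
Pomc: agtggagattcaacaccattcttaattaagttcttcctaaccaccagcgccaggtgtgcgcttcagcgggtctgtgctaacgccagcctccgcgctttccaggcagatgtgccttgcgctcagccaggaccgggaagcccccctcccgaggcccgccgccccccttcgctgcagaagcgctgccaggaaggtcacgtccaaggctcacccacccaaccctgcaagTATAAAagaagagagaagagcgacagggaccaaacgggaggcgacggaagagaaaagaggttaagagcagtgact
The box began at position -33 in Hcrt, -27 in Pmch and -25 in Pomc, counted from the start base as +1. TATAAA was found on either strand in 3 of the 8 windows and in 13.6% of all 32851 promoters in the table. The cyclic AMP response element TGACGTCA was found in 1 of the 8, Cartpt, at -112, and in 1.79% of all promoters. The element AAAGGTCA, known as the site that Nurr1 and its relatives bind alone, was found in 0 of the 8 and in 1.51% of all promoters. No matches overlapped in the member windows, and a match is a description of these letters only.

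The peptide genes varied widely between libraries of the same group. The summed level of the 10 genes was 242 to 460 CPM in the high-dose group, 42.6 to 236 CPM in the low-dose group, 2.30 to 535 CPM in the levodopa group, 181 to 770 CPM in the MPTP group and 2.36 to 50.4 CPM in controls. For all 10 genes the control mean was the lowest of the 5. Nothing is read from this, as the genes were chosen knowing that hypothalamic genes were lower in controls than after MPTP. When the 5 group means of each gene were put in order, the libraries of neighbouring groups overlapped in 39 of 40 pairs, the exception being Pomc in the MPTP and control groups. MPTP library 1 was the highest library for 6 genes, and levodopa library 3 was among the top 3 for 8. The libraries with high cerebellar markers were at the other end, levodopa library 2 being among the lowest 3 for 9 genes and control library 2 for 8.

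**Figure D1:**
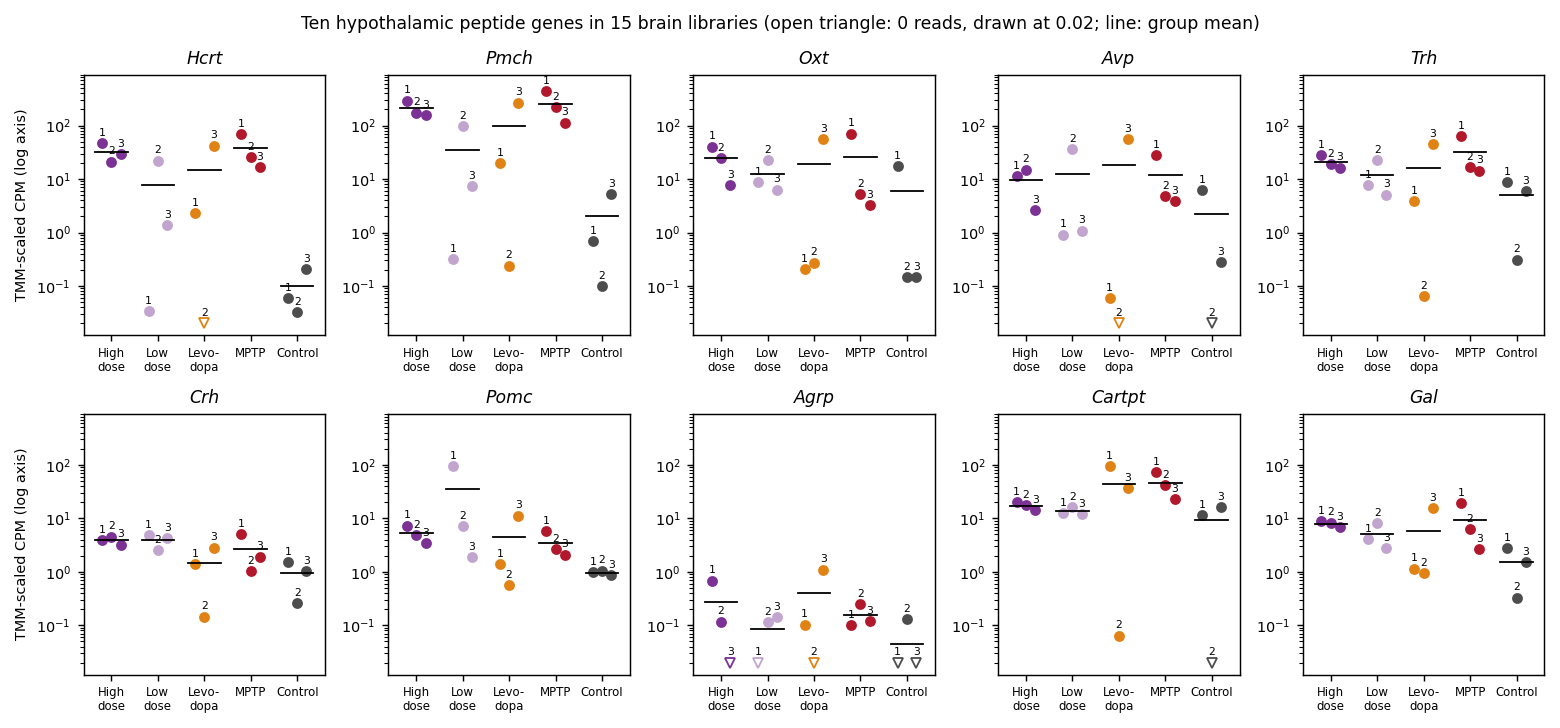
Level of each of the 10 peptide genes in TMM-scaled CPM on a log axis, 1 point per library numbered by replicate, with a line at the group mean; an open triangle is a library with 0 reads. Hcrt lies at 0.208 CPM or less in the 3 controls and Pmch at 5.27 CPM or less, while Pomc has 1 point far above the rest, low-dose library 1 at 95.8 CPM.

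Hcrt encodes the orexins, also called hypocretins, which keep animals awake and promote feeding. It lies on chromosome 11 (chr11:100761693-100762931, GRCm38.p6, minus strand), and its median level over the 15 libraries was 22.2 CPM per kb of exon. The 3 high-dose libraries had 47.5, 21.2 and 28.8 CPM. The 3 low-dose libraries had 0.0337, 22.1 and 1.38 CPM. The levodopa libraries had 2.27, 0 and 42.3 CPM, where 0 reads in library 2 allow a level of up to 0.0483 CPM. The high-dose libraries were thus all high, while the low-dose and levodopa groups had 1 high library each. The MPTP libraries had 69.6, 25.6 and 16.6 CPM and the controls 0.0594, 0.0328 and 0.208 CPM. The 3 controls rest on 4, 2 and 14 reads, against 1118 to 4754 reads in the MPTP libraries, and the 2 groups did not overlap. The means were 32.5 ± 13.5 CPM in the high-dose group, 7.85 ± 12.4 CPM in the low-dose group, 14.9 ± 23.8 CPM in the levodopa group, 37.3 ± 28.3 CPM in the MPTP group and 0.1 ± 0.0944 CPM in controls (SD, n = 3 each).

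Pmch encodes melanin-concentrating hormone, which promotes feeding and sleep, and its neurons lie among the orexin neurons. It was the member with the highest level per length, with a median of 132 CPM per kb of exon and a highest value of 580. The gene lies on chromosome 10 (chr10:88091072-88092374, plus strand). High-dose libraries had 292, 175 and 159 CPM, and low-dose libraries 0.321, 98.7 and 7.48 CPM. Levodopa libraries had 20.1, 0.241 and 269 CPM. MPTP libraries had 434, 220 and 114 CPM and controls 0.683, 0.0985 and 5.27 CPM. The libraries that were high for Hcrt were high for Pmch, and every high-dose library lay above every low-dose library. The means were 209 ± 72.4 CPM in the high-dose group, 35.5 ± 54.8 CPM in the low-dose group, 96.5 ± 150 CPM in the levodopa group, 256 ± 163 CPM in the MPTP group and 2.02 ± 2.83 CPM in controls (SD, n = 3 each).

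Hcrt and Pmch held a nearly fixed proportion to each other where both had at least 50 reads. In the 10 libraries with at least 50 reads of each, the ratio of Pmch to Hcrt reads was 4.46 to 8.85, with a median of 6.30. Over the same libraries Pmch varied 58.0-fold and Hcrt 50.3-fold, while their ratio varied 1.99-fold. Low-dose library 2 had the lowest ratio, 4.46, and levodopa library 1 the highest, 8.85. The other 5 libraries, among them all 3 controls and low-dose library 1, fell short of 50 reads of Hcrt. Control library 3 had 355 reads of Pmch and 14 of Hcrt, a ratio of 25.4. Control library 1 had 46 and 4 reads, a ratio of 11.5, and control library 2 had 6 and 2, a ratio of 3. The cut-off leaves out these ratios, which rest on few reads of Hcrt, so the narrow range says nothing of the controls. In low-dose library 1 only 2 reads of Hcrt and 19 of Pmch were counted.

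**Figure D2:**
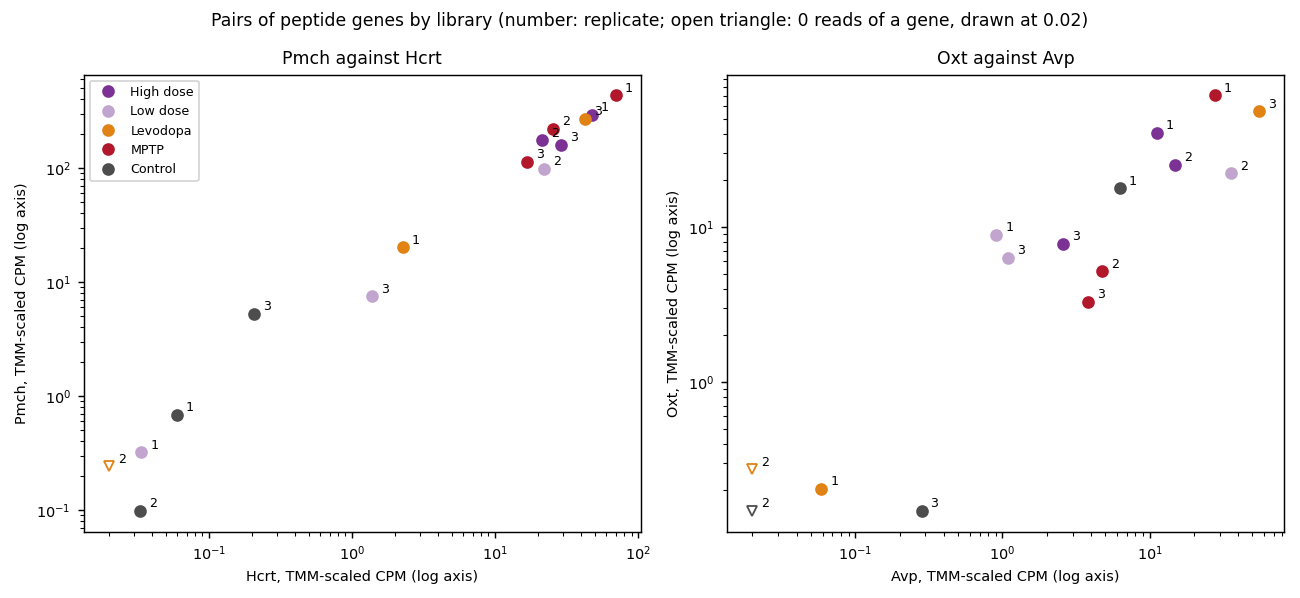
Levels of 2 pairs of genes in each library, in TMM-scaled CPM on log axes, coloured by group and numbered by replicate; open triangles have 0 reads of a gene. Libraries with more Hcrt mostly have more Pmch, along a band that is narrow at the higher levels. Control library 3, with few reads of Hcrt, is high in Pmch for its Hcrt. Oxt and Avp scatter more widely, with low-dose libraries 1 and 3 high in Oxt for their Avp.

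Oxt encodes oxytocin, the peptide of milk ejection, birth and social behaviour. Oxt and Avp lie side by side on chromosome 2 (chr2:130574519-130577054, plus strand, and chr2:130580620-130582588, minus strand), 3565 bases apart and transcribed towards each other. Oxt was measured at 40.6, 25.0 and 7.78 CPM in high-dose libraries, at 8.86, 22.2 and 6.34 CPM in low-dose libraries and at 0.205, 0.274 and 55.7 CPM in levodopa libraries. It was at 70.6, 5.18 and 3.29 CPM in MPTP libraries and at 17.7, 0.148 and 0.148 CPM in controls. Every group overlapped every other, since control library 1 exceeded MPTP libraries 2 and 3. The means were 24.5 ± 16.4 CPM in the high-dose group, 12.5 ± 8.54 CPM in the low-dose group, 18.7 ± 32.0 CPM in the levodopa group, 26.3 ± 38.3 CPM in the MPTP group and 6.00 ± 10.1 CPM in controls (SD, n = 3 each).

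Avp encodes vasopressin, the hormone of water retention and a partner of Crh in driving corticotropin release. Its levels were 11.2, 15 and 2.59 CPM in high-dose libraries, 0.911, 36.0 and 1.09 CPM in low-dose libraries and 0.0587, 0 and 55.5 CPM in levodopa libraries. MPTP libraries had 27.7, 4.77 and 3.82 CPM and controls 6.25, 0 and 0.282 CPM. A single library carried most of the level in the low-dose, levodopa, MPTP and control groups. Unlike the lateral hypothalamic pair, the ratio of Oxt to Avp reads spread widely, from 0.617 in low-dose library 2 to 9.72 in low-dose library 1, a 15.8-fold range over the 11 libraries with at least 50 reads of each. In those libraries Oxt varied 21.5-fold and Avp 60.9-fold.

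Trh encodes thyrotropin-releasing hormone, which drives the pituitary to release thyrotropin, and lies on chromosome 6 (chr6:92242061-92244650, minus strand). It was at 27.9, 19.1 and 16.3 CPM in high-dose libraries, 7.58, 22.4 and 5.13 CPM in low-dose libraries and 3.84, 0.0644 and 44.9 CPM in levodopa libraries. MPTP libraries had 63.9, 16.8 and 14.3 CPM and controls 8.88, 0.312 and 5.96 CPM. The MPTP libraries did not overlap with the controls. The high-dose libraries lay inside the range of the MPTP group, and the levodopa group held both the lowest library of the series and the second highest.

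Crh encodes corticotropin-releasing hormone, the start of the stress axis, and is also made by interneurons of the cerebral cortex. It lies on chromosome 3 (chr3:19693401-19695396, minus strand). Crh was low, with 3.91, 4.54 and 3.23 CPM in high-dose libraries, 4.79, 2.53 and 4.26 CPM in low-dose libraries and 1.39, 0.145 and 2.85 CPM in levodopa libraries. MPTP libraries had 5.15, 1.04 and 1.92 CPM and controls 1.51, 0.263 and 1.02 CPM. Its mean was 3.89 ± 0.654 CPM in the high-dose group, 3.86 ± 1.18 CPM in the low-dose group, 1.46 ± 1.35 CPM in the levodopa group, 2.70 ± 2.17 CPM in the MPTP group and 0.934 ± 0.631 CPM in controls (SD, n = 3 each). Both inhibitor groups lay above all controls, and both overlapped with the MPTP group. The share of all genes in which inhibitor groups lay above all controls was not computed. Nothing is therefore read from such a separation from controls, here or for Gal and Npy below.

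Pomc encodes pro-opiomelanocortin, the precursor of the melanocortins that reduce feeding in the arcuate nucleus and of corticotropin in the pituitary. It lies on chromosome 12 (chr12:3954945-3960643, plus strand). High-dose libraries had 7.32, 4.92 and 3.48 CPM, and low-dose libraries 95.8, 7.19 and 1.89 CPM. Levodopa libraries had 1.39, 0.564 and 11.3 CPM. MPTP libraries had 5.81, 2.67 and 2.1 CPM and controls 0.980, 1.05 and 0.876 CPM. Low-dose library 1, with 5678 reads, was 8.48-fold above the next library, levodopa library 3, while the other 2 low-dose libraries lay just above and just below the MPTP range. Of 15830 genes with a mean of at least 1 CPM, none had a larger excess of its highest library over the next, and the runner-up in low-dose library 1, Frmd7, was 2.78-fold above. The pituitary markers of that library summed to 5.47 CPM, with 3 of 9 at 0 reads and growth hormone, Gh, at 2.87 CPM. In low-dose library 2 they summed to 45.6 CPM, with Gh at 36.5 CPM and Pomc at 7.19 CPM. Gh thus gave most of the sum of low-dose library 2. Where the Pomc reads of low-dose library 1 came from was not tested.

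Agrp encodes the agouti-related peptide, which blocks melanocortin receptors and drives feeding. It lies on chromosome 8 (chr8:105566695-105579845, minus strand). It had few reads, at 0.684, 0.117 and 0 CPM in high-dose libraries, 0, 0.114 and 0.140 CPM in low-dose libraries and 0.103, 0 and 1.10 CPM in levodopa libraries. MPTP libraries had 0.102, 0.249 and 0.119 CPM and controls 0, 0.131 and 0 CPM. At most 76 reads were counted, in levodopa library 3, and 5 libraries had 0, so no difference between groups was detectable at this depth. Low-dose library 1, the library with 5678 reads of Pomc, had 0 of Agrp.

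Cartpt encodes the CART peptides, which reduce feeding and are made in several brain regions besides the hypothalamus. It lies on chromosome 13 (chr13:99898483-99910179, minus strand). High-dose libraries had 19.9, 17.7 and 14.3 CPM, low-dose libraries 12.3, 16.3 and 12.1 CPM and levodopa libraries 96.1, 0.0644 and 36.9 CPM. MPTP libraries had 73.3, 41.4 and 22.6 CPM and controls 11.5, 0 and 16.1 CPM. All 6 inhibitor libraries lay below all 3 MPTP libraries, and their spread was narrow. The means were 17.3 ± 2.81 CPM in the high-dose group, 13.6 ± 2.37 CPM in the low-dose group, 44.4 ± 48.4 CPM in the levodopa group, 45.8 ± 25.6 CPM in the MPTP group and 9.21 ± 8.31 CPM in controls (SD, n = 3 each).

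Gal encodes galanin, an inhibitory peptide that neurons release together with classical transmitters. It lies on chromosome 19 (chr19:3409915-3414544, minus strand). Gal was at 8.93, 8.30 and 6.77 CPM in high-dose libraries, 4.10, 8.25 and 2.82 CPM in low-dose libraries and 1.14, 0.950 and 15.6 CPM in levodopa libraries. MPTP libraries had 19.4, 6.25 and 2.66 CPM and controls 2.82, 0.328 and 1.51 CPM. The high-dose libraries lay above all controls, while MPTP library 3 was below control library 1.

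After MPTP alone, all 10 genes had a higher mean than in controls. The log2 fold change was 8.49 (SE 2.42) for Hcrt and 6.98 (SE 2.29) for Pmch, and the other 8 ran from 1.53 for Crh to 2.65 for Trh. The median of the 10 was 2.39, against -0.01 for all 21821 genes tested. Libraries of the MPTP group lay above all controls in 5 of the 10, Hcrt, Pmch, Trh, Pomc and Cartpt, a pattern found in 6.83% of all genes tested, and lay below all controls in 0, against 6.20% of all genes. By edgeR's quasi-likelihood test with Benjamini-Hochberg adjustment over all genes, 0 of 10 passed 0.05 and 0% of all genes did. At an unadjusted p under 0.05 there were 3, Hcrt, Pmch and Gal, against 6.62% of all genes, and DESeq2 called 2, Hcrt and Pmch, against 0.235% of all genes. Since the genes were chosen on this contrast, nothing is read from these counts.

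With levodopa, no peptide gene differed from MPTP alone by more than the spread between libraries. Of the 10, 0 passed the edgeR test and 0% of all genes did. An unadjusted p under 0.05 was found for 0 of the 10, against 2.96% of all genes, and DESeq2 called 0, against 0.00923% of all genes. Fold changes ran from -1.41 (log2, SE 1.78) for Pmch, with 96.5 against 256 CPM, to 1.35 (SE 1.59) for Agrp, and 7 of 10 were below 0. The median was -0.58, and no gene had groups that did not overlap, which 4.93% of all genes showed in the higher and 4.65% in the lower direction. Without levodopa library 3 the values of Hcrt and Pmch were -5.02 and -4.65 on the log2 scale, and those of Avp and Oxt -8.53 and -6.75, so this library carried most of the group's peptide level. The levodopa and inhibitor comparisons share the MPTP libraries.

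With the low dose of the inhibitor, Pmch and Cartpt had lower means than with MPTP alone, with no overlap between groups. Pmch averaged 35.5 CPM with the low dose and 256 CPM with MPTP alone (log2 fold change -2.85, SE 1.88, edgeR adjusted p = 0.371). Cartpt averaged 13.6 CPM with the low dose and 45.8 CPM with MPTP alone (log2 fold change -1.75, SE 1.49, edgeR adjusted p = 0.503). These were 2 of 10 genes, a share near the 19.8% of all genes that lay lower without overlap in this comparison, and 0 of 10 lay higher in that way, as 20.9% of all genes did. Of the 10 genes 0 passed the edgeR test, while 8.53% of all genes did, 4.78% higher and 3.75% lower. The gene with the smallest p was Pomc, with a log2 fold change of 3.31 (SE 1.27) and an edgeR adjusted p of 0.123. It was the 1 gene with an unadjusted p under 0.05 (25.8% of all genes) and the 1 gene called by DESeq2 (15.7% of all genes). Without low-dose library 1 its log2 fold change was 0.39, so 1 library carried it. The median of the 10 was -0.99.

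With the high dose, most peptide genes had means near those after MPTP alone. Hcrt had a log2 fold change of -0.20 (SE 1.64), Pmch of -0.30 (SE 1.75), Oxt of -0.11 (SE 1.90) and Gal of -0.24 (SE 1.02), and such errors allow changes of several fold in either direction. Cartpt was the 1 gene without overlap, lower in the high-dose group at 17.3 CPM, against 45.8 CPM with MPTP alone (log2 fold change -1.40, SE 1.47, edgeR adjusted p = 0.678), and 19.4% of all genes lay lower in that way. None of the 10 lay higher without overlap, as 20.4% of all genes did. By edgeR 0 of 10 passed the test, while 1.97% of all genes did, 1.08% higher and 0.884% lower. An unadjusted p under 0.05 was found for 0 of the 10, against 18.5% of all genes, and DESeq2 called 0, against 8.04% of all genes. The median of the 10 was -0.22.

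The 2 doses were also set against each other. Pmch was the 1 gene without overlap, higher at the high dose, as 5.23% of all genes were, with 209 CPM at the high dose and 35.5 CPM at the low dose (log2 fold change 2.55, SE 1.85). Hcrt averaged 32.5 CPM at the high dose and 7.85 CPM at the low dose (log2 fold change 2.05, SE 1.70). By edgeR 0 of 10 passed the test and 0% of all genes did, and DESeq2 called 0 of the 10 and 0.00462% of all genes. No gene lay lower at the high dose without overlap, as 5.34% of all genes did. The 1 gene with an unadjusted p under 0.05 was Pomc, at -2.74 (log2, SE 1.24), against 2.23% of all genes, and without low-dose library 1 it stood at 0.20. Of the 10 fold changes 8 were above 0, and the median was 0.76.

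**Figure D3:**
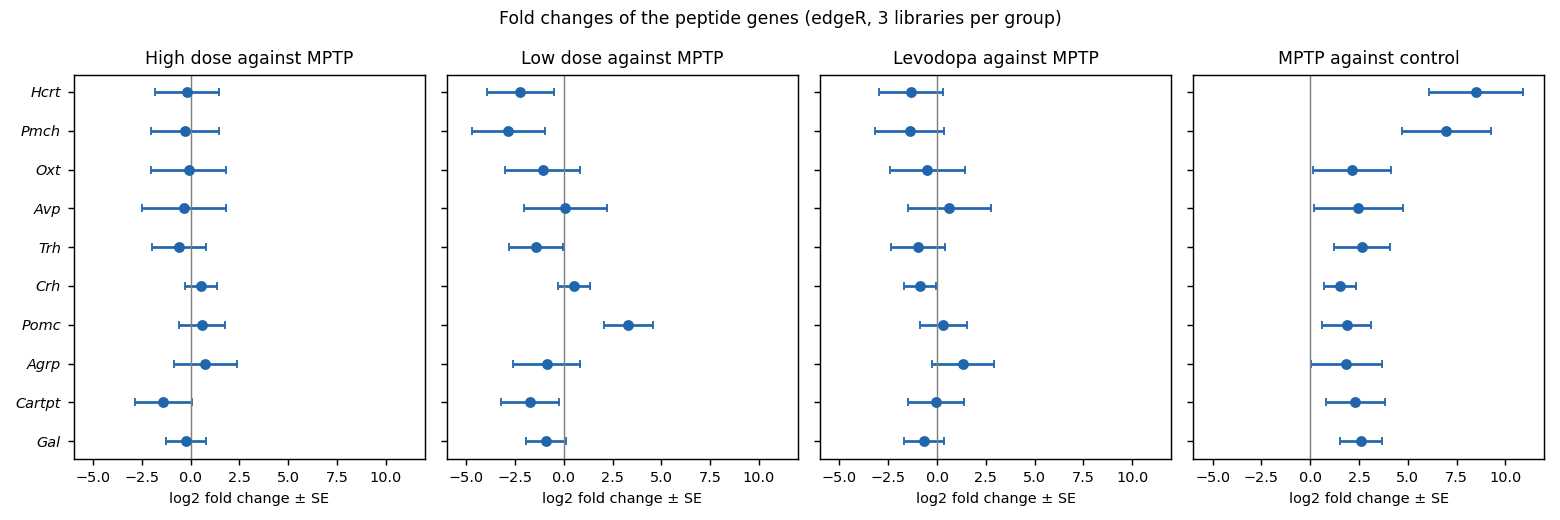
Log2 fold change of each of the 10 genes in 4 comparisons, as points with 1 SE to either side, from edgeR's fit of all 15 libraries with 3 per group. In the 3 comparisons with MPTP alone most bars cross 0, and in MPTP against control, the contrast on which the genes were chosen, all 10 points lie above 0, with Hcrt at 8.49 and Pmch at 6.98.

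One of the receptors for these peptides passed the test, in 1 comparison. Of 17 genes for receptors and the Crh-binding protein, 15 had enough reads to be tested, and 0 passed the edgeR test in MPTP against control, levodopa against MPTP, high dose against MPTP and high against low dose. In low dose against MPTP 1 of 15 passed, a share near the 8.53% of all genes that did. It was Avpr1b, which encodes a vasopressin receptor. It rose to 0.186, 0.243 and 0.315 CPM, or 11 to 18 reads, in low-dose libraries, against 0 reads in every MPTP library, which is at least 5.62-fold higher when each MPTP library is set at 3 reads (edgeR adjusted p = 0.0470). The call ended with any of the 6 libraries left out. In the high-dose libraries Avpr1b was at 0.473, 0.150 and 0.0337 CPM, with an edgeR adjusted p of 0.0933. At an unadjusted p under 0.05 there was Crhr1 in levodopa against MPTP and Avpr1b in both inhibitor comparisons with MPTP, which DESeq2 called in both, and DESeq2 called 0 receptors elsewhere. Crhr1 was at 25.5, 120.9 and 13.9 CPM in levodopa libraries, against 12.0, 15.7 and 19.6 CPM in MPTP libraries, so levodopa library 2, the one with high cerebellar markers, carried the difference. The median log2 fold change of the 15 was 0.07 in the low-dose and 0.34 in the high-dose comparison with MPTP.

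Among 16 other peptide genes of the hypothalamus, all of them tested, edgeR called 2 higher and 0 lower in each inhibitor group relative to MPTP alone. Of all genes tested, 1.97% were called in either direction at the high dose and 8.53% at the low dose, so the low-dose share is near that of all genes. Npy, the neuropeptide Y gene of arcuate neurons and of interneurons throughout the forebrain, was at 27.1, 36.7 and 21.8 CPM in high-dose libraries, 53.7, 37.1 and 45.0 CPM in low-dose libraries and 4.90, 7.45 and 8.80 CPM in MPTP libraries. All 6 inhibitor libraries lay above all 3 MPTP libraries and all 3 controls, which had 19.4, 12.9 and 9.82 CPM. The rise was 2.02 on the log2 scale (SE 0.35, edgeR adjusted p = 0.0212) at the high dose and 2.68 (SE 0.36, edgeR adjusted p = 0.00294) at the low dose. The low-dose call was kept with each of the 6 libraries left out, and the high-dose call ended in 5 of 6 cases, with adjusted p from 0.0390 to 0.114. Agrp, which arcuate Npy neurons also make, was at 0 to 0.684 CPM in the same inhibitor libraries, too low for groups to be compared. Which cells carried the Npy rise was not tested.

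Gnrh1, which encodes the hormone that drives the reproductive axis, also rose, to 2.46 ± 0.516 CPM at the high dose, against 0.864 ± 0.0669 CPM with MPTP alone (SD, n = 3 each, log2 fold change 1.51, SE 0.35, edgeR adjusted p = 0.0473). At the low dose it was 2.26 ± 0.535 CPM (SD, n = 3, log2 fold change 1.39, SE 0.34, edgeR adjusted p = 0.0294). The MPTP mean was the lowest of all groups, with 1.265 ± 0.496 CPM in controls and 1.523 ± 0.538 CPM with levodopa (SD, n = 3 each). Low-dose library 3, at 1.65 CPM, lay below control library 2, at 1.81 CPM, and levodopa library 2, at 1.92 CPM. Those control and levodopa libraries were the ones with high cerebellar markers. Its calls ended with any of 6 libraries left out at the high dose and with 5 of 6 at the low dose. Markers of the cortex and hippocampus moved with both genes. Their sum was 199 to 403 CPM in high-dose libraries and 351 to 412 CPM in low-dose libraries. MPTP libraries, at 93.1 to 128 CPM, overlapped with neither. Levodopa libraries had 72.85 to 213 CPM and controls 106 to 240 CPM. The part of these markers in the result was not tested. The other 14 peptide genes, among them Sst, Vip, Kiss1 and Tac2, did not pass the edgeR test in either comparison, and 0 of 16 passed in the other 3. In those 3, an unadjusted p under 0.05 was found for 4 of 16 in MPTP against control (6.62% of all genes), 1 in levodopa against MPTP (2.96%) and 1 in high against low dose (2.23%), and DESeq2 called 1, Ghrh, in MPTP against control.

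Genes that mark the hypothalamus and are no peptides were examined next, and these too were chosen knowing that hypothalamic genes were higher after MPTP than in controls. None of the 16 transcription factor genes of hypothalamic development passed the edgeR test in any of the 5 comparisons. An unadjusted p under 0.05 was found for 6 of them in MPTP against control (6.62% of all genes), 2 in low dose against MPTP (25.8% of all genes), 2 in high dose against MPTP (18.5% of all genes) and 0 in the other 2 comparisons. The shares in the inhibitor comparisons are thus below those of all genes. DESeq2 called Nhlh2 and Foxb1 in low dose against MPTP and Tbx3 in high dose against MPTP, and 0 elsewhere. In low dose against MPTP their median log2 fold change was -1.96, with 6 of 16 lower without overlap, against 19.8% of all genes. Hypothalamic genes were known to be high in these MPTP libraries when the list was chosen. Nothing is therefore read from the counts of lower genes at either dose. Foxb1, a gene of the mammillary nuclei, averaged 0.869 CPM with the low dose and 7.73 CPM with MPTP alone (log2 fold change -3.15, SE 1.07, edgeR adjusted p = 0.0873). Nhlh2 averaged 4.38 CPM with the low dose and 13.3 CPM with MPTP alone (log2 fold change -1.60, SE 0.47, edgeR adjusted p = 0.0549). In high dose against MPTP the median was -0.45, with 5 of 16 lower without overlap, against 19.4% of all genes, and Tbx3, a regulator of arcuate neurons, averaged 1.81 CPM with the high dose and 3.58 CPM with MPTP alone (edgeR adjusted p = 0.0945). In MPTP against control the median was 2.77, with 9 of 16 higher without overlap, against 6.83% of all genes, and nothing is read from this count, as the list was chosen on that contrast. Nr5a1, the marker of the ventromedial nucleus, averaged 2.85 CPM with MPTP and 0.0472 CPM in controls.

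Markers of other regions moved with the groups too. The 8 dopamine neuron markers summed to 43.0 to 215 CPM in high-dose libraries, 23.4 to 142 CPM in low-dose libraries, 17.5 to 323 CPM in levodopa libraries, 226.5 to 348 CPM in MPTP libraries and 11.6 to 191 CPM in controls. The sum of these markers, those of the cells the toxin damages, was thus higher in every MPTP library than in every control. Gene by gene, 5 of the 8 lay higher without overlap, against 6.83% of all genes, and 0 passed the edgeR test. Slc6a3, Pitx3 and En1 overlapped, with control library 3 above at least 1 MPTP library for each. The 8 striatal markers summed to 537 to 1428 CPM in high-dose libraries and 1303 to 1672 CPM in low-dose libraries. They summed to 184 to 232 CPM in MPTP libraries, 229.5 to 342 CPM in levodopa libraries and 408 to 2713 CPM in controls. Control library 1 had the highest striatal sum of all libraries. The 16 hypothalamic regulators summed to 49.5 to 68.6 CPM in high-dose libraries, 26.6 to 44.5 CPM in low-dose libraries, 29.4 to 119 CPM in levodopa libraries, 98.8 to 137 CPM in MPTP libraries and 21.6 to 82.3 CPM in controls. A single gene, Lhx9, gave 35.5 to 66.0 CPM of the MPTP sums and 59.3 CPM of the sum of control library 3, and Nhlh2 was highest in control library 2, at 19.2 CPM, so the sums say little of the other 14 genes. The 8 thalamic markers summed to 369 to 787 CPM in high-dose libraries and 240 to 448 CPM in low-dose libraries. They summed to 1015 to 1499 CPM in MPTP libraries, 530 to 850 CPM in levodopa libraries and 622 to 1307 CPM in controls. Control library 3 thus lay above MPTP library 1. The 8 choroid plexus markers summed to 301 to 1484 CPM in high-dose libraries, 910 to 1421 CPM in low-dose libraries, 20.6 to 47.3 CPM in levodopa libraries, 27.6 to 37.7 CPM in MPTP libraries and 97.3 to 960 CPM in controls. Both of these lists and the striatal one separated the MPTP libraries from every inhibitor library. Of the 8 choroid plexus markers, edgeR called 2 higher at the high dose and 4 at the low dose. Of all genes 1.97% and 8.53% were called, in either direction. Ttr and Kcne2 were called with either dose (edgeR adjusted p = 0.0229 and 0.0407 at the high dose, 0.00706 and 0.0136 at the low dose). Otx2 had a lower mean with the high and the low dose, 8.59 and 8.32 CPM, against 14.8 CPM with MPTP alone. Ttr gave most of each inhibitor sum, as with 1414 of the 1484 CPM of high-dose library 3. The part of these regional differences in the peptide levels was not tested, and region and treatment cannot be told apart in this design.

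**Figure D4:**
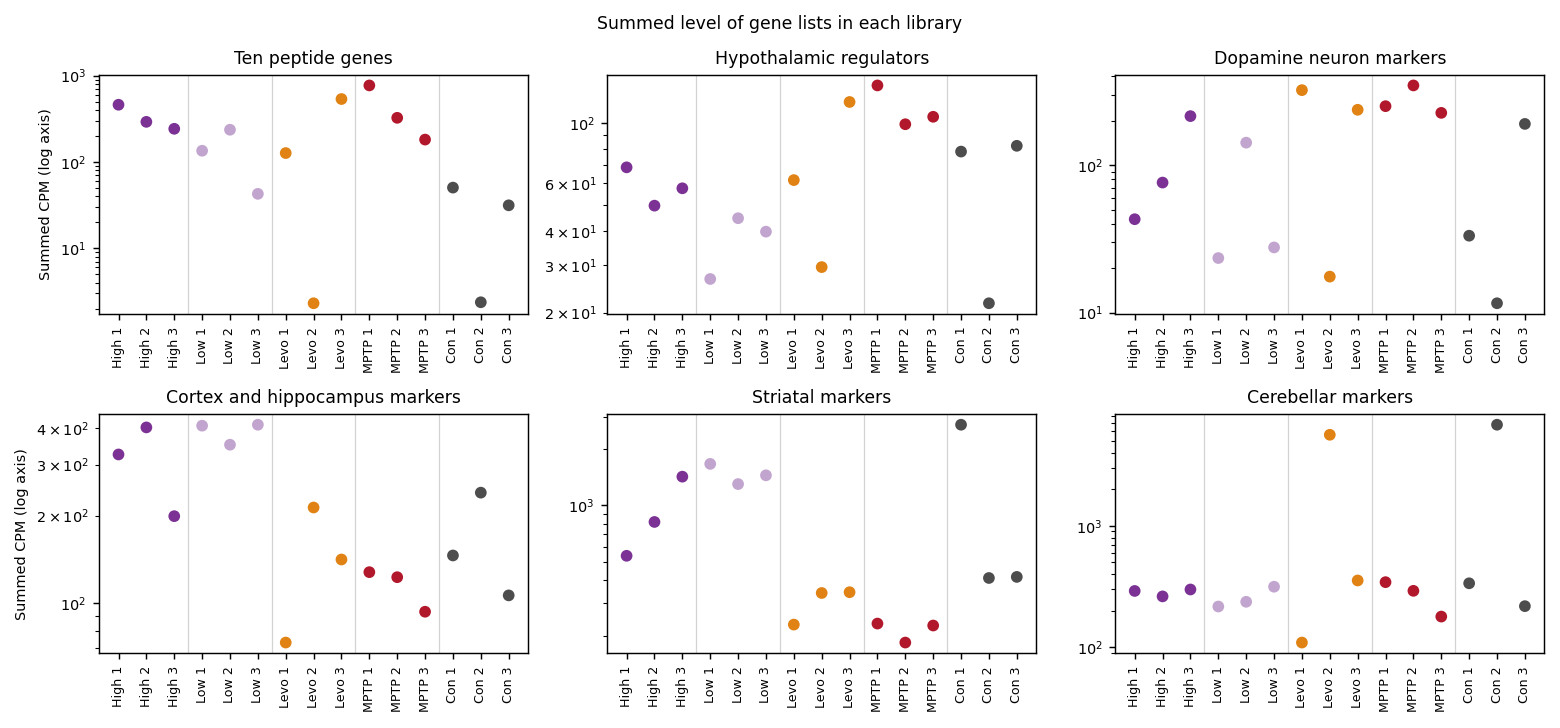
Summed TMM-scaled CPM, on log axes, of the 10 peptide genes, the hypothalamic regulators and the markers of dopamine neurons, cortex and hippocampus, striatum and cerebellum, 1 point per library. Control library 2 and levodopa library 2, at 6778 and 5603 CPM of cerebellar markers, have peptide sums of 2.36 and 2.30 CPM, the lowest of the 15.

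Enzymes and vesicle proteins that make and store peptides were more even than the peptides themselves. Of 12 such genes 0 passed the edgeR test in any comparison, and their summed level was 3132 to 5380 CPM over all 15 libraries. The smallest p-values with the inhibitor were those of Cadps, a priming factor of dense vesicles, at 243 CPM with the low dose and 335 CPM with MPTP alone (log2 fold change -0.47, SE 0.17, edgeR adjusted p = 0.110), and of Scg2, a vesicle matrix protein, at 308 CPM with the low dose and 629 CPM with MPTP alone (log2 fold change -1.03, SE 0.45, edgeR adjusted p = 0.168). Of 8 receptors and signal genes for leptin, ghrelin, insulin, Glp1 and neuropeptide Y, 0 passed in any comparison. The ghrelin receptor gene Ghsr averaged 0.839 CPM with the low dose and 4.92 CPM with MPTP alone (log2 fold change -2.55, SE 1.20, edgeR adjusted p = 0.203). For these 2 lists an unadjusted p under 0.05 was found for Cadps with either dose and for Scg2 with the low dose, and DESeq2 called 0.

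The genes whose levels followed each peptide most closely were ranked over the 15 libraries by Spearman's rho among 14229 genes with a mean of at least 1 CPM. The libraries share 5 groups and differ in regional content, and the highest of so many values is high by selection, so the values are a description. Hcrt and Pmch were each other's first, with rho = 0.971 and Pearson's r = 0.985 (n = 15). Hcrt was followed by Gstm6 (rho = 0.950), Cited1, Vat1 and Tspan6, and Pmch by Asb4 (rho = 0.968), Arhgap36 (rho = 0.961), Tspan6 and Otp. Tspan6 was thus on both lists.

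Gal and Trh also named each other, while Oxt named Gal and Avp named Trh without being named in return. Gal was closest to Brs3 (rho = 0.993, r = 0.974, n = 15), and its closest 5 also held Map3k15, Ecel1 and Trh. Trh was closest to Sytl4 (rho = 0.975), Gpr50, Gal (rho = 0.957), Gpr101 and Fezf1. Oxt was closest to Cadm1 (rho = 0.946), Gal (rho = 0.943), Map3k15, Brs3 and Ecel1, and Avp to Nexmif (rho = 0.950), Trh (rho = 0.936), Sytl4 and Hs2st1. Avp was not among the 5 closest genes of Oxt, nor Oxt among those of Avp.

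Pomc, Crh, Cartpt and Agrp named no other member. Cartpt was closest to Fads2 (rho = 0.964), Fads1, Slc5a5 (rho = 0.950), Entpd2 and Pgf. Pomc was closest to Nol4l (rho = 0.932), Src, Frmd7, Wnt7b and Fads3, and Crh to Basp1 (rho = 0.925), Osbpl10, Efcab6, Flot1 and Myh6. Agrp, which had few reads, was closest to Fkbp10 (rho = 0.746), followed by Polr3e, Syt13, Sumf1 and Ifih1, the lowest values of the 10 genes.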

How the data were processed

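The authors deposited whole-number read counts per gene symbol, 1 table for each of 15 mouse brain libraries, and the deposited counts were used as they stand. The submitters' processing notes name HISAT2 2.1.0 and StringTie 2.1.3b, besides Trimmomatic and bcl2fastq 2.20.0, and the builds GRCm38 and mm10. No source used here gives the annotation, the strand setting in counting or the treatment of shared reads. The kit marks strand. The tables of the 6 inhibitor libraries have 24 empty trailing columns and those of the other 9 have 51, so handling and treatment cannot be told apart.

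Groups and replicate numbers come from the titles. Counts were tested with edgeR 4.0.16 (R 4.3.3), with TMM scaling, filterByExpr by group and 1 quasi-likelihood fit of all 15 libraries, which left 21821 genes, all 10 peptide genes among them. P-values were adjusted over all genes by Benjamini-Hochberg at 0.05, and the SE is the absolute log2 fold change over the root of the F statistic. TMM-scaled CPM give the levels, with mean ± SD over 3 libraries. Libraries of 1 group differed by more than sampling noise (chi-square per degree of freedom of at least 29.3), so each was counted once. A floor of 3 reads covers counting error only.

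The genes and all lists were chosen with earlier results of these data known. Besides the 10 genes, the text names the 5 genes with the highest Spearman rho to each (log2 CPM, prior count 2, mean of at least 1 CPM, no predicted genes) and, from each pathway list, the called genes or up to 3 with the smallest p. A selection of these is printed, and some are not reported here. Genes named otherwise were chosen after their values were seen. Coordinates, promoters and names come from RefSeq tables of GRCm38.p6, and exon lengths from the GENCODE annotation. The scripts were tested on simulated data. Alternatives were DESeq2 1.42.0, RLE and upper-quartile scaling, a stricter filter (5 CPM in 3 libraries) and none, only the 2 groups compared, the replicate number as a block, leaving out control 2 with levodopa 2, and each library left out in turn.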

Additional observations from a re-analysis of the deposited data

How the results depend on the processing

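For the 50 fold changes of the peptide genes 655 alternative values were computed. Of these, 612 kept their direction and their side of the threshold, 38 turned direction, in 22 fold changes and for each of the 10 genes at least once, 5 gained a call and 0 lost one. The 100 levels recomputed under other scalings all moved by less than 1 SD. DESeq2 called 2 peptide genes in MPTP against control, Hcrt (adjusted p = 0.00702) and Pmch (adjusted p = 0.0335), and 1 in low dose against MPTP, Pomc (adjusted p = 0.0373). With only the 2 groups fitted, edgeR called 1 in low dose against MPTP and 1 in high dose against MPTP, Cartpt in both (adjusted p = 0.0111 and 0.0414). Of the receptors, 0 were called in low dose against MPTP with no filter, with the filter of 5 CPM and with any library left out, and 5 with only the 2 groups. The filter of 5 CPM removed Avpr1b before the test, since its highest library was at 0.473 CPM, so that setting says nothing of its call. In high dose against MPTP DESeq2 called 1 receptor and the fit of only the 2 groups 2. Over all genes DESeq2 called 51 in MPTP against control, 2 in levodopa against MPTP, 3412 in low dose against MPTP, 1742 in high dose against MPTP and 1 in high against low dose. Without a filter there were 1224 calls in low dose against MPTP and 214 in high dose against MPTP, and with only the 2 groups 4253 and 3560. When single libraries were left out, the calls over all genes were 0 to 1 in levodopa against MPTP, 421 to 1300 in low dose against MPTP and 18 to 138 in high dose against MPTP, the fewest in both without MPTP library 2. Gnrh1 lost its high-dose call with no filter (adjusted p = 0.0730), as Avpr1b lost its low-dose call (adjusted p = 0.0668).

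Equal replicate numbers did not pair the libraries. Their deviations from group means correlated at -0.297 to 0.239 over 15 pairs, no comparison had every pair over 0.1, and in 4 of 15 pairs a library was closest to its own number. With the replicate number as a block, 0 peptide genes and 0 receptors were called in low dose against MPTP, 226 genes were called in high dose against MPTP, and the log2 fold change of Oxt was 1.45 in levodopa against MPTP, 0.49 in low dose against MPTP and 0.91 in high dose against MPTP. The adjusted p of Gnrh1 at the high dose was 0.0555 and that of Avpr1b at the low dose 0.0807 with the block. Without control 2 and levodopa 2, levodopa against MPTP gave 0.08 for Oxt and 0.53 for Cartpt.

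When 1 library at a time was left out, the log2 fold changes that turned direction at least once were these. In MPTP against control the range was -0.51 to 7.46 for Oxt. In levodopa against MPTP the range was -6.75 to 2.14 for Oxt, -8.53 to 2.1 for Avp, -1.83 to 0.89 for Pomc, -1.54 to 1.92 for Agrp, -4.01 to 0.05 for Trh, -3.16 to 0.40 for Gal and -1.32 to 0.53 for Cartpt. In low dose against MPTP the range was -1.79 to 1.58 for Oxt, -3.59 to 1.59 for Avp and -1.44 to 0.20 for Gal. In high dose against MPTP the range was -0.56 to 0.64 for Hcrt, -0.64 to 0.33 for Pmch, -0.67 to 2.54 for Oxt, -0.82 to 1.17 for Avp, -1.38 to 1.35 for Agrp, -0.92 to 0.45 for Trh and -0.67 to 0.86 for Gal. In high against low dose the range was -0.97 to 3.27 for Avp, -3.32 to 0.20 for Pomc, -0.51 to 2.22 for Agrp and -0.21 to 0.20 for Crh. MPTP library 1 was the library whose absence turned the most of them.

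The cause of these changes was not tested. With 3 libraries a group, and SEs of 0.81 to 2.42 on the log2 scale for the peptide genes, changes of less than several fold could not be told from the spread between libraries. Depth limits Agrp and Avpr1b, and the Hcrt level of the controls.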

Other observations

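The genes given here were chosen after their values were seen. Ucn, which encodes urocortin, a relative of Crh made by neurons of the midbrain that also make CART peptides, was at 0, 0.0334 and 0 CPM in high-dose libraries, 0, 0.0974 and 0.0350 CPM in low-dose libraries and 6.73, 0 and 1.69 CPM in levodopa libraries. MPTP libraries had 3.50, 1.52 and 0.892 CPM and controls 0, 0 and 0.832 CPM. Levodopa library 1 was the highest library for both Cartpt and Ucn. Low-dose library 2 was the highest of all 15 for the growth hormone gene Gh, at 36.5 CPM, 3.20-fold above the next library, and had Prl, the prolactin gene, at 6.25 CPM.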
